A study of Mus musculus with 15 samples.

Results

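Expression of 10 genes of tryptophan and NAD metabolism was read across kidney libraries, the 10 being taken by symbol from a table of 54532 genes. Of these, 6 act on kynurenine or on its products: Afmid, Kmo, Kynu, Haao, Acmsd and Qprt. Another 3, Naprt, Nampt and Nadsyn1, belong to the other routes to NAD, and Ahr encodes the aryl hydrocarbon receptor, for which kynurenine is a ligand. No expression value entered this choice, but it was made with results of these libraries known.

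The libraries came from 15 kidneys of male C57BL/6 mice that were 8 weeks old at the start, 5 in each of 3 groups. The control group (C) ate chow without adenine. In the model group (M), chronic kidney disease (CKD) was induced with 0.25% adenine in the chow for 4 weeks, after which the mice returned to a standard diet until week 8. The AA group had the same diet and was gavaged every day for all 8 weeks with 30 mg/kg of asiatic acid, a plant triterpenoid, and C and M received the vehicle. A mouse on AA without adenine was not among these libraries, so what AA does in a healthy kidney cannot be read here. RNA was taken from kidney tissue, in which fewer cells of a type and less RNA per cell cannot be told apart. The part of the kidney that was sampled is not given in the sources used here.

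Most tryptophan that is not used for protein is degraded through kynurenine. Ido1, Ido2 or Tdo2 opens the indole ring, Afmid releases kynurenine, and Kmo, Kynu and Haao carry it to an unstable semialdehyde. That semialdehyde either closes to quinolinate, which Qprt turns into the NAD precursor nicotinate mononucleotide, or is drawn off by Acmsd towards complete oxidation. NAD is also made from nicotinate, through Naprt, and salvaged from nicotinamide, through Nampt; Nadsyn1 performs the last amidation of both the quinolinate and the nicotinate route. In kidney, the proximal tubule is known as a major site of this synthesis.

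The values are FPKM, read fragments normalised to gene length and a library total, as deposited. That total, implied by the step of 1 read in low values, was not the sum of reads recovered over genes. It exceeded that sum in every C library. It was below it in M mice 1 to 3 and most AA mice, and above it in the rest. It was 66432600 against 28884400 in C mouse 3 and 9018790 against 17418100 in AA mouse 2. FPKM differences between groups therefore include a difference in scale, whose cause was not tested. Differences were tested with limma on log2(FPKM + 1), and a gene was called when its Benjamini-Hochberg adjusted p over all genes tested was at most 0.05 and its log2 fold change was at least 1 in size. All 10 genes had a value above 0 in at least 5 of the 10 libraries of each comparison and were tested in all 3 comparisons. In the comparisons with C, the 5 C libraries alone were enough for this.

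M mice 1 to 3 stood apart from the other libraries. They had between 10068 and 12222 genes above 0, against 23040 and 25460 in M mice 4 and 5 and 18695 to 25251 in the C and AA groups. Reads outside the mitochondrial genes, as recovered from the FPKM values, numbered 2077640 to 2770070 in those 3 libraries and 6488510 and 7142900 in M mice 4 and 5. They numbered 6951350 to 13576600 in C and 2225760 to 4271180 in AA. The labels name no batch. The comparisons with M are therefore also given with M mice 4 and 5 alone. A value of 0 in M mice 1 to 3 is a listed value and may be a missed transcript, and this holds for each statement below that all M libraries lay under another group. The p-values measure the spread between these mice.

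The promoters are shown first, since Ahr with its partner Arnt binds a short core, GCGTG. RefSeq promoters of GRCm38.p6, from 250 bases before to 50 after the gene start, were searched for 6 of the 10 genes: Afmid, Kmo, Haao, Qprt, Nampt and Nadsyn1. The core, searched on both strands, was in 2 of the 6, and it was in 32.4% of all 32851 promoters. Those 2 are printed 5′ to 3′ on the strand of the gene, with the core in capitals, GCGTG or its reverse complement CACGC. The Haao promoter is at chr17:83846741-83847040 on the minus strand, and the Nampt promoter at chr12:32820085-32820384 on the plus strand.
Haao promoter: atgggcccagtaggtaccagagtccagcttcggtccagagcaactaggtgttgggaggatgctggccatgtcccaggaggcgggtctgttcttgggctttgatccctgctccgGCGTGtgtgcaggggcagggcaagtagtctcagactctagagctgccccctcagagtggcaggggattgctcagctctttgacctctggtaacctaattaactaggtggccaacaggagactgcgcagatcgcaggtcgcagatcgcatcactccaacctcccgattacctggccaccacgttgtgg
Nampt promoter: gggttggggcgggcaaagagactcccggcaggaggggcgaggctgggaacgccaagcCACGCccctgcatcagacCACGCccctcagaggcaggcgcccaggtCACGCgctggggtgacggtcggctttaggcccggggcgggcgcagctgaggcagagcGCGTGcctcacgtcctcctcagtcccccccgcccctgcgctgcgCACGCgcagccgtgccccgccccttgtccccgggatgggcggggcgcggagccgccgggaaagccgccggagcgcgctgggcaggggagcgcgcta
The Haao promoter held 1 core and that of Nampt held 5. The GTTAAT half-site that HNF1 factors of tubule cells bind was found in 1 of the 6, Haao, and in 7.10% of all promoters. The HNF4 core CAAAGTC was found in 1 of the 6, Kmo, and in 4.44% of all promoters. The windows follow the RefSeq start, and those of Haao, Kmo and Nampt lie inside the wider GENCODE gene whose position is given below. Both motifs were searched on both strands, and in these promoters neither lay over an Ahr core. These are matches of letters in a window, and no binding was measured.

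In the C group, Haao was the most abundant of the 10 transcripts by far, at 60.4 ± 35.5 FPKM (SD, n = 5). Naprt followed at 12.1 ± 7.44 FPKM, Nadsyn1 at 8.26 ± 5.57 FPKM and Nampt at 5.70 ± 1.70 FPKM. Kmo at 3.00 ± 1.14, Qprt at 2.49 ± 0.83 and Acmsd at 2.36 ± 1.59 FPKM lay close together, and Afmid stood at 1.09 ± 1.08 FPKM. Ahr at 0.490 ± 0.285 and Kynu at 0.222 ± 0.182 FPKM were the lowest. Only the step from Haao to Naprt left no overlap between neighbours in this order, since every C library of Haao exceeded every C library of Naprt. In AA the order was different: Haao still led, at 4.38 ± 1.08 FPKM, but Acmsd was the third at 2.11 ± 0.74 FPKM, and Nadsyn1 was listed at 0 in AA mouse 1.

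**Figure D1:**
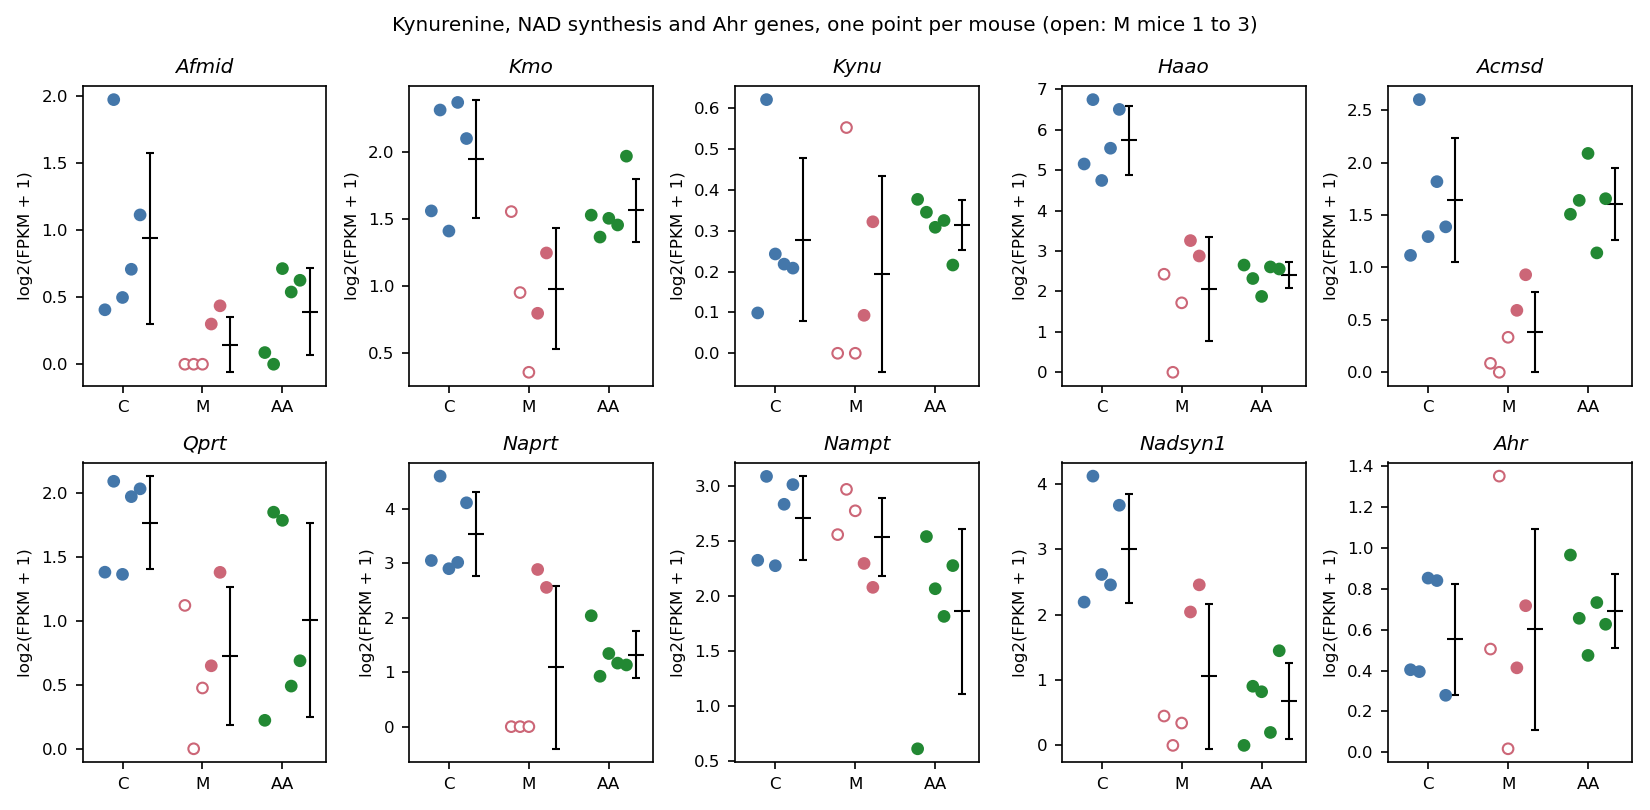
Level of each gene as log2(FPKM + 1), with 1 point per mouse in the C, M and AA groups (mice 1 to 5 from left to right, open points for M mice 1 to 3) and the mean ± SD beside the points. Haao lies at 25.8 FPKM or more in C and at 8.57 FPKM or less in M and AA, whereas the Acmsd points of AA lie within the range of C.

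Over the 10 genes, 1 was called lower for M vs. C and none higher, where 1.11% of the 21153 genes tested were called lower and 0.269% higher. The median log2 fold change of the 10 was -1.005, against -0.12 for all genes. For AA vs. M, 1 was called higher and none lower, where 11.7% of 19798 genes were called higher and 1.07% lower, so 1 of 10 was near the background. The medians were 0.24 and 0.17. For AA vs. C, 3 were called lower and none higher, where 9.61% of 21898 genes were called lower and 10.2% higher, and the medians were -0.65 and 0.09. With M mice 4 and 5 alone, 2 were called lower for AA vs. M, where 6.23% of genes were called lower and 2.39% higher. In M vs. C with those 2 mice, 0 of the 10 and 0% of all genes were called.

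Counted without a model, the libraries of M lay wholly below those of C for 3 of the 10 genes, Haao, Acmsd and Naprt, against 3.67% of all genes. Those of AA lay wholly above M for 1, Acmsd, against 11.9%. Those of AA lay wholly below C for 3, Haao, Naprt and Nadsyn1, against 12.5%. With M mice 4 and 5 alone, M lay below C for 4 (Kmo, Haao, Acmsd and Naprt), against 7.46% of all genes. AA then lay above M for 2, Kmo and Acmsd, against 17.3%, and below M for 3, Haao, Naprt and Nadsyn1, against 16.5%. M vs. C and AA vs. C share the C libraries, so the repeated place of Haao is not independent.

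**Figure D2:**
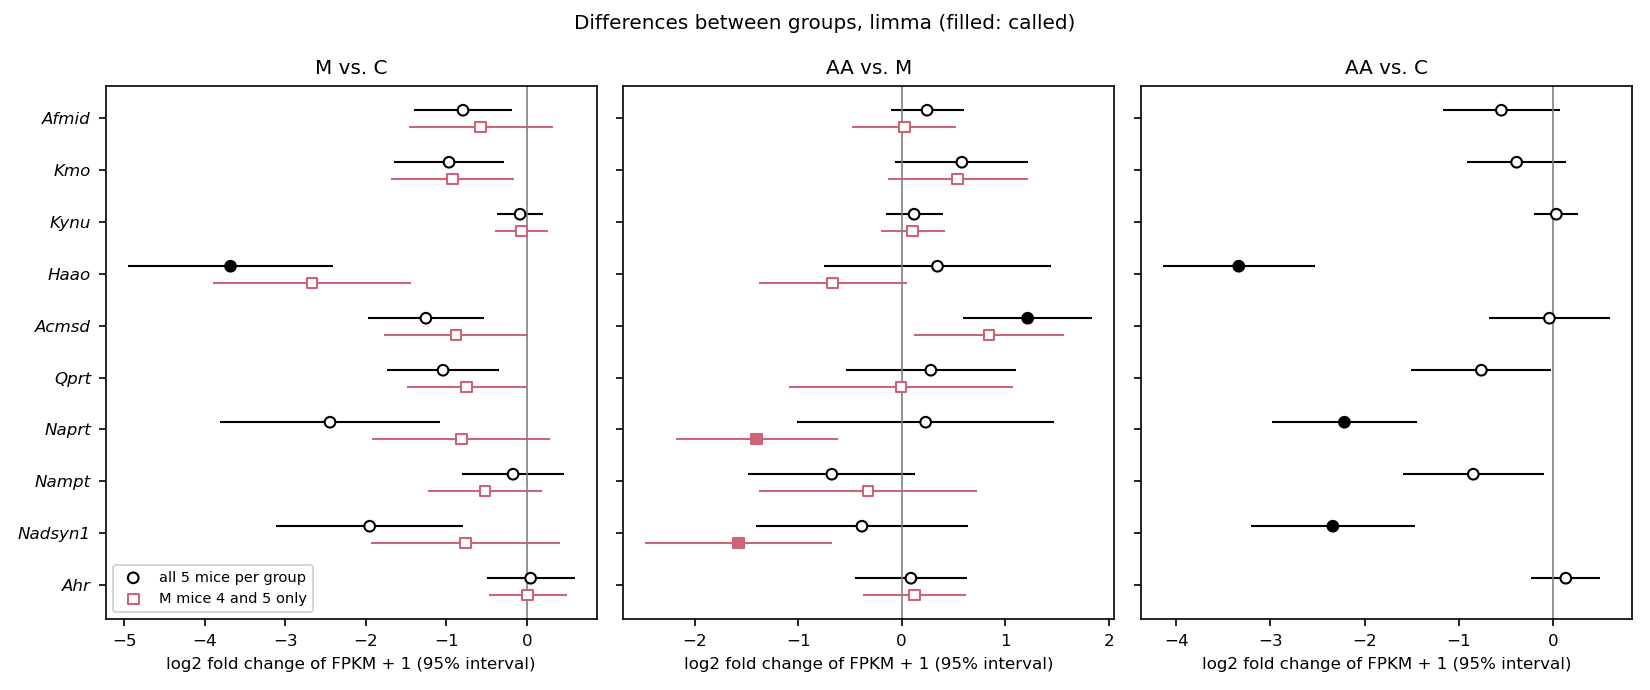
Log2 fold change of FPKM + 1 with its 95% interval for each gene and each pair of groups, from all 5 mice per group (black) and from M mice 4 and 5 alone (red), filled where called. Haao is called for M vs. C, Acmsd for AA vs. M, and Haao, Naprt and Nadsyn1 for AA vs. C; with M mice 4 and 5 alone, Naprt and Nadsyn1 are called lower in AA than in M.

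Of the 10 genes, Haao had the largest fall in M and in AA. It encodes 3-hydroxyanthranilate dioxygenase, which makes the semialdehyde from which quinolinate forms, and lies at chr17:83831156-83847963 of GRCm38 on the minus strand. In C mice 1 to 5 its level was 34.6, 106, 25.8, 45.6 and 89.7 FPKM. In the M group it was 4.37, 0, 2.29, 8.57 and 6.34 FPKM. In the AA group it was 5.29, 3.99, 2.67, 5.09 and 4.88 FPKM. All M and AA libraries lay below the lowest C library, and the M and AA ranges overlapped.

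The log2 fold change of Haao was -3.68 (SE 0.59) for M vs. C, with a limma adjusted p of 0.018, and -3.34 (SE 0.37) for AA vs. C, with a limma adjusted p of 0.0002. Between AA and M it was 0.35, with a 95% interval from -0.75 to 1.44, and its sign changed with the scaling, over a range from -0.17 to 0.77. The call for M vs. C was lost with M mice 4 and 5 alone, where the log2 fold change was -2.67 and the limma adjusted p 0.115. In that fit, no gene of 20868 was called, although 2489 had an unadjusted p under 0.05. The call was also lost, at similar or larger folds, without C mouse 5 (-3.49, limma adjusted p 0.067), without M mouse 3 (-3.60, limma adjusted p 0.064), with no filter on low values (-3.68, limma adjusted p 0.058) and as TPM without mitochondrial genes (-4.45, limma adjusted p 0.053). The AA vs. C call held when any single mouse was left out, with log2 fold changes from -3.58 to -3.08.

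Acmsd took a different course from Haao and was the only one of the 10 genes called for AA vs. M. Its product, the aminocarboxymuconate semialdehyde decarboxylase, competes with the closure to quinolinate, and the gene lies at chr1:127729413-127767978 on the plus strand. The C libraries held 1.17, 5.06, 1.45, 2.53 and 1.62 FPKM. The M libraries held 0.061, 0, 0.260, 0.506 and 0.905 FPKM. The AA libraries held 1.84, 2.11, 3.25, 1.20 and 2.15 FPKM. Every M library was below every C and every AA library, and C and AA overlapped over most of their range.

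The log2 fold change of Acmsd was 1.22 (SE 0.29) for AA vs. M, with a limma adjusted p of 0.012, and -1.25 (SE 0.33) for M vs. C, where the limma adjusted p of 0.084 missed the threshold. M vs. C was -0.88 with M mice 4 and 5 alone (limma adjusted p 0.43). For AA vs. C it was -0.04, with a 95% interval from -0.68 to 0.60 that takes in small changes in either direction. The AA vs. M call held without any single mouse, with log2 fold changes from 1.10 to 1.35. It was not made with M mice 4 and 5 alone, where the log2 fold change was 0.84 and the limma adjusted p 0.133. It was not made on 3 other scales either: 1.18 as TPM (limma adjusted p 0.124), 0.70 after centring each library on its median (limma adjusted p 0.080), and 0.85 after quantile normalization, where the limma adjusted p of 0.047 passed and the fold did not.

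Within a library, the ratio of the Acmsd and Haao transcripts does not depend on how that library is scaled. It can still move with the GC content of the genes, 43.7% for Acmsd and 51.1% for Haao, taken up below. The part of GC content in this ratio was not tested. Acmsd made up 3.26, 4.55, 5.32, 5.25 and 1.77% of the summed FPKM of both genes in C mice 1 to 5. In AA it made up 25.8, 34.6, 54.9, 19.1 and 30.6%. In M mice 1, 3, 4 and 5 it made up 1.37, 10.2, 5.58 and 12.5%, and in M mouse 2 both genes were listed at 0. All 5 AA libraries were above all others, and M overlapped C. The separation of AA from C was not particular to Acmsd. Kmo made up 3.52 to 8.34% of the summed FPKM of Kmo and Haao in C and 25.5 to 40.7% in AA. In M the Kmo share was 7.91 to 100%, the highest in M mouse 2, where Haao was listed at 0. These shares were chosen after the values of the genes were seen and are given without a test.

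**Figure D3:**
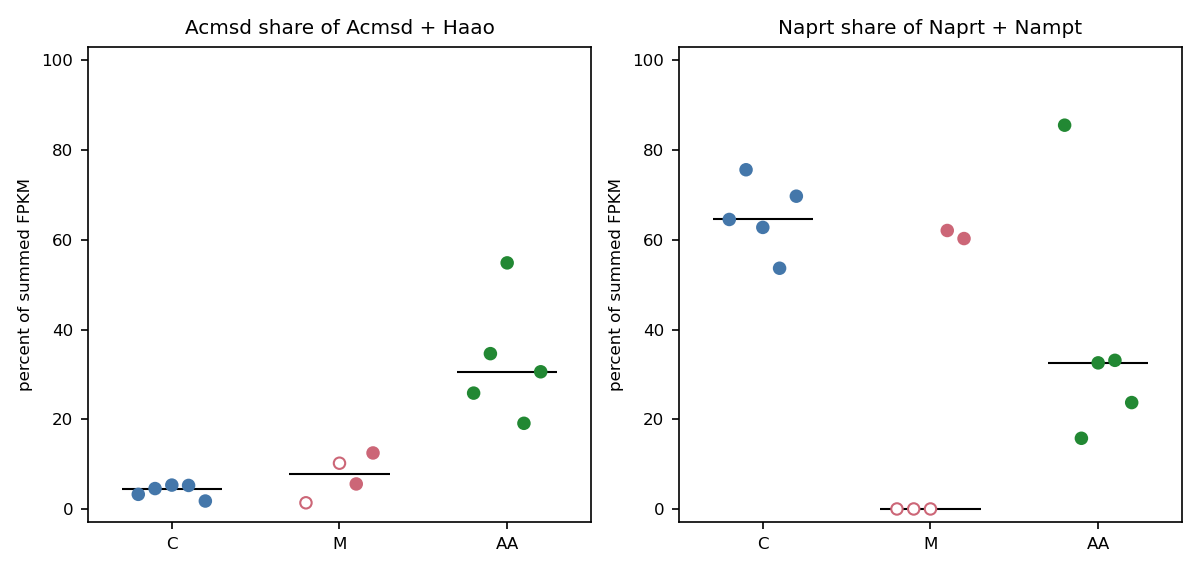
Share of Acmsd in the summed FPKM of Acmsd and Haao (left) and of Naprt in that of Naprt and Nampt (right), in percent, with 1 point per mouse (open for M mice 1 to 3) and a line at the group median. The Acmsd share is 19.1% or more in AA and 12.5% or less in C and M, with no value for M mouse 2, whereas the Naprt share spreads from 15.8 to 85.6% within AA.

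Kmo, Kynu and Afmid act before Haao, and on the FPKM scale none of them was called. Kmo, the monooxygenase that makes 3-hydroxykynurenine, lies at chr1:175620381-175662116. It had 1.94, 3.96, 1.65, 4.15 and 3.28 FPKM in C and 1.93, 0.93, 0.28, 0.74 and 1.37 FPKM in M. It had 1.88, 1.57, 1.83, 1.74 and 2.91 FPKM in AA. Only M mouse 1 of the M group reached the range of C. The log2 fold change of Kmo was -0.97 for M vs. C (limma adjusted p 0.157), 0.58 for AA vs. M (limma adjusted p 0.197) and -0.39 for AA vs. C (limma adjusted p 0.226). With M mice 4 and 5 alone it was -0.93 for M vs. C (limma adjusted p 0.307) and 0.54 for AA vs. M (limma adjusted p 0.282).

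Afmid, the formamidase that yields kynurenine, lies at chr11:117825924-117839908 and ranged from 0.326 to 2.93 FPKM in C, with a median of 0.634 FPKM. It was listed at 0 in M mice 1 to 3 and stood at 0.231 and 0.353 FPKM in M mice 4 and 5, and in AA it ranged from 0 to 0.640 FPKM. Its log2 fold change was -0.79 for M vs. C and -0.55 for AA vs. C, and neither was called, with limma adjusted p of 0.186 and 0.152. M vs. C was -0.57 with M mice 4 and 5 alone (limma adjusted p 0.658). Its values are uncertain in another way, since 44.2% of its exon bases are shared with Gm20708 on the same strand.

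Kynu, the kynureninase at chr2:43555329-43682715, was near the lower end of detection. It ranged from 0.071 to 0.538 FPKM in C, from 0 to 0.467 in M and from 0.162 to 0.299 in AA, with 14 to 133 counted reads per library in C and 0 to 48 in M. The 3 groups overlapped, and the 95% interval of its log2 fold change for AA vs. C was -0.20 to 0.27. For M mice 4 and 5 alone against C it was -0.07, with a 95% interval from -0.40 to 0.26. At such levels the added 1 FPKM compresses any fold change.

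Qprt, at chr7:127107114-127122226, commits quinolinate to NAD and varied most among the AA mice. It had 1.60, 3.25, 1.57, 2.92 and 3.08 FPKM in C, and 1.17, 0, 0.39, 0.57 and 1.60 FPKM in M. In AA it had 0.17, 2.60, 2.44, 0.40 and 0.61 FPKM. AA mice 2 and 3 were at the level of C, whereas AA mice 1, 4 and 5 were below every C library. The log2 fold change of Qprt was -1.04 for M vs. C (limma adjusted p 0.136) and -0.76 for AA vs. C (limma adjusted p 0.10), neither called. The value for M mice 4 and 5 alone against C was -0.75 (limma adjusted p 0.411).

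The transcripts of both Naprt and Nadsyn1 were lower in the AA mice than in C. Naprt, the nicotinate phosphoribosyltransferase at chr15:75890956-75894481, had 7.28, 23.2, 6.46, 7.08 and 16.3 FPKM in C. It was listed at 0 in M mice 1 to 3 and stood at 6.39 and 4.88 FPKM in M mice 4 and 5. In AA it had 3.10, 0.90, 1.54, 1.24 and 1.19 FPKM. All AA libraries were below all C libraries and below M mice 4 and 5, but above M mice 1 to 3, so that M lay on both sides of AA.

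Nadsyn1, the NAD synthetase at chr7:143795584-143822849, showed the same arrangement in part. It had 3.57, 16.4, 5.12, 4.49 and 11.8 FPKM in C and 0.365, 0, 0.267, 3.11 and 4.49 FPKM in M. In AA it had 0, 0.872, 0.766, 0.147 and 1.73 FPKM. Every AA library was below every C library and below M mice 4 and 5, while M mice 1 to 3 lay within the range of AA.

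For AA vs. C, the log2 fold change of Naprt was -2.21 (SE 0.36, limma adjusted p 0.0011) and that of Nadsyn1 -2.34 (SE 0.40, limma adjusted p 0.0015), and both calls, like that of Haao, held without any single mouse and on all 5 scalings tried. For M vs. C, neither was called, at -2.45 for Naprt (limma adjusted p 0.080) and -1.95 for Nadsyn1 (limma adjusted p 0.097). For AA vs. M the outcome turned on M mice 1 to 3. With all 5 M mice the log2 fold changes were 0.23 for Naprt and -0.38 for Nadsyn1, and with M mice 4 and 5 alone they were -1.40 (limma adjusted p 0.037) and -1.57 (limma adjusted p 0.039), both called lower in AA. Of the exon bases of Naprt, 11.8% are shared with Eef1d on the same strand.

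Nampt, the rate-limiting enzyme of salvage from nicotinamide, at chr12:32819545-32853349, was not called in any comparison, and its M vs. C sign turned after centring and after quantile normalization. It had 4.00, 7.48, 3.83, 6.11 and 7.05 FPKM in C and 4.88, 6.82, 5.83, 3.90 and 3.21 FPKM in M. In AA it had 0.523, 4.80, 3.18, 2.51 and 3.83 FPKM. The 3 groups overlapped, with AA mouse 1 far below the rest. The log2 fold change was -0.17 for M vs. C (95% interval -0.80 to 0.46), or -0.52 with M mice 4 and 5 alone (95% interval -1.22 to 0.18), and -0.85 for AA vs. C (limma adjusted p 0.072), and without AA mouse 2 the latter became -1.02 and was called (limma adjusted p 0.042).

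Set against Nampt, a share chosen after the values were seen, Naprt made up 53.7 to 75.6% of the summed FPKM of both in C. It made up 0% in M mice 1 to 3, where it was listed at 0, and 62.1 and 60.3% in M mice 4 and 5. It made up 15.8 to 33.1% in AA mice 2 to 5 and 85.6% in AA mouse 1, the mouse with the lowest Nampt. The C and AA ranges thus overlapped through 1 library.

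Ahr, at chr12:35497974-35535038, showed no difference that could be detected. It had 0.323, 0.315, 0.806, 0.791 and 0.213 FPKM in C and 0.419, 1.55, 0.012, 0.332 and 0.645 FPKM in M. In AA it had 0.953, 0.576, 0.389, 0.662 and 0.544 FPKM. The groups overlapped, and both the highest and the lowest value were in M mice 2 and 3. Its sign changed with the scaling in all 3 comparisons. The 95% interval of the log2 fold change was -0.50 to 0.59 for M vs. C, -0.45 to 0.63 for AA vs. M and -0.23 to 0.50 for AA vs. C. With M mice 4 and 5 alone it was -0.47 to 0.49 for M vs. C and -0.37 to 0.63 for AA vs. M.

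The other genes of these pathways, 47 on lists set out by function, held 46 in the table. For M vs. C, 43 could be tested, and 5 were called lower and 0 higher, against 1.11% and 0.269% of all genes. Of these, 3 were on the list of kynurenine to quinolinate and side branches. They were Kyat1, an aminotransferase that diverts kynurenine to kynurenic acid, Aldh8a1, which acts after Acmsd, and Aspdh, an aspartate dehydrogenase. A role of Aspdh in this pathway was not tested. The log2 fold changes were -3.29 for Kyat1, -2.17 for Aldh8a1 and -3.64 for Aspdh, with limma adjusted p of 0.043, 0.029 and 0.018. The remaining pair are transporters of the tubule, Slc6a19 for neutral amino acids such as tryptophan, at -1.91, and Slc22a13 for nicotinate and urate, at -2.08. With M mice 4 and 5 alone, 0 of the 43 were called.

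For AA vs. C, 9 of 42 were called lower and 3 higher, against 9.61% and 10.2% of all genes, so the count of higher calls was not above the background. Kyat1 had 16.3, 54.8, 16.0, 11.9 and 33.1 FPKM in C and 2.14, 0.607, 0.730, 1.63 and 0.637 FPKM in AA, with a log2 fold change of -3.51 (limma adjusted p 0.00019). In M it was listed at 0 in mice 1 to 3 and had 9.55 and 6.53 FPKM in mice 4 and 5, as with Naprt. Aspdh was at 13.98 FPKM or more in all C mice and at 1.18 FPKM or less in all AA mice, with a log2 fold change of -4.40. Aldh8a1, at -1.87, and Aadat, a further kynurenine aminotransferase, at -1.81, were also called lower. With them, 4 of 6 genes on the list of kynurenine to quinolinate and side branches were called lower.

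Among the 7 other genes of NAD synthesis, 2 were lower in AA than in C and 1 was higher. Nmnat1, the nuclear adenylyltransferase that joins all routes, had 0.90 to 2.51 FPKM in C and 0 to 0.576 FPKM in AA, with a log2 fold change of -1.16. Nmrk1, a nicotinamide riboside kinase, was lower by a log2 fold change of -1.27, whereas its paralog Nmrk2 was higher by 1.09. Nmrk2 had 0.336, 0, 0.016, 0.351 and 0.145 FPKM in C and 2.14, 0.120, 2.26, 3.56 and 0.770 FPKM in AA, so AA mouse 2 stayed in the range of C. On the list of NAD consumption and nicotinamide methylation, 2 of 11 genes were called, the NAD-dependent deacylases Sirt2, at -1.21, and Sirt3, at -1.58.

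At the head of the pathway, Ido2 was higher in AA than in both other groups. It had 3.23, 0.513, 0.509, 1.82 and 1.93 FPKM in C and 0, 0.184, 0.041, 1.18 and 2.88 FPKM in M. In AA it had 10.6, 7.96, 3.78, 7.76 and 4.59 FPKM. All AA libraries were above all others, with log2 fold changes of 1.65 against C (limma adjusted p 0.0039) and 2.24 against M (limma adjusted p 0.0047). Against M mice 4 and 5 alone, Ido2 was not called, at 1.37 (limma adjusted p 0.065). Ido1 stayed at 0.245 FPKM or less and Tdo2 at 0.896 FPKM or less in every library. Neither was called where tested, and Ido1 had too few values above 0 to be tested for AA vs. M.

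For AA vs. M, 5 of 39 were called higher and 0 lower, a share of higher calls near the 11.7% of all genes. They were Ido2, Nmrk2 at 1.15, and 3 transporters. Slc22a13 had 8.76, 8.38, 4.04, 8.37 and 9.57 FPKM in C, 0.775, 0, 0, 3.63 and 3.11 FPKM in M, and 10.9, 10.5, 9.69, 8.21 and 6.36 FPKM in AA. Like those of Acmsd, its M values, with 2 listed at 0, lay under every C and AA value, and its log2 fold change for AA vs. M was 2.30 (limma adjusted p 0.0053). It was called with M mice 4 and 5 alone as well, at 1.19 (limma adjusted p 0.039). Slc3a1, of the cystine transporter, was higher by 1.47 and Slc5a8, a carrier of nicotinate and lactate, by 1.06. With M mice 4 and 5 alone, Slc22a13 was the 1 called higher, and 4 were called lower, against 2.39% and 6.23% of all genes. The 4 were Kyat1 at -2.11, Aspdh at -1.34, Nmnat1 at -1.14 and Sirt2 at -1.29.

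Of the 10 other genes of the Ahr list, 7 could be tested for M vs. C, 5 for AA vs. M and 6 for AA vs. C. Cyp1a1, the classical target, had 0.290, 0.411, 0.151, 0.212 and 0 FPKM in C, and of the 10 M and AA libraries only M mouse 5 had a value above 0, at 0.092 FPKM. It was not called for M vs. C (limma adjusted p 0.211) and had too few values for the other comparisons. Tiparp, an ADP-ribosyltransferase induced by Ahr, was not called in any comparison, with 1.19 FPKM on average in C and 1.28 FPKM in AA. Nqo1, a quinone reductase under Ahr and other factors, was above 0 in every library, at 6.44 FPKM on average in C, 3.91 FPKM in M and 4.86 FPKM in AA, and was not called. Ahrr, the repressor, reached at most 0.623 FPKM. Cyp1b1 was the 1 gene of this list called, for AA vs. C, at 1.00 (limma adjusted p 0.040), from 12.02 to 23.91 FPKM on average. In M, Cyp1b1 averaged 14.66 FPKM, with a log2 fold change of 0.11 for M vs. C (limma adjusted p 0.915). Cyp1b1 is also known from fibroblasts, whose 8 markers summed to 66.7 to 152 FPKM in C, 135 to 448 FPKM in M and 290 to 490 FPKM in AA. The part of fibroblasts in the call of Cyp1b1 was not tested. Nnmt, which methylates nicotinamide, was not called in any comparison.

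**Figure D4:**
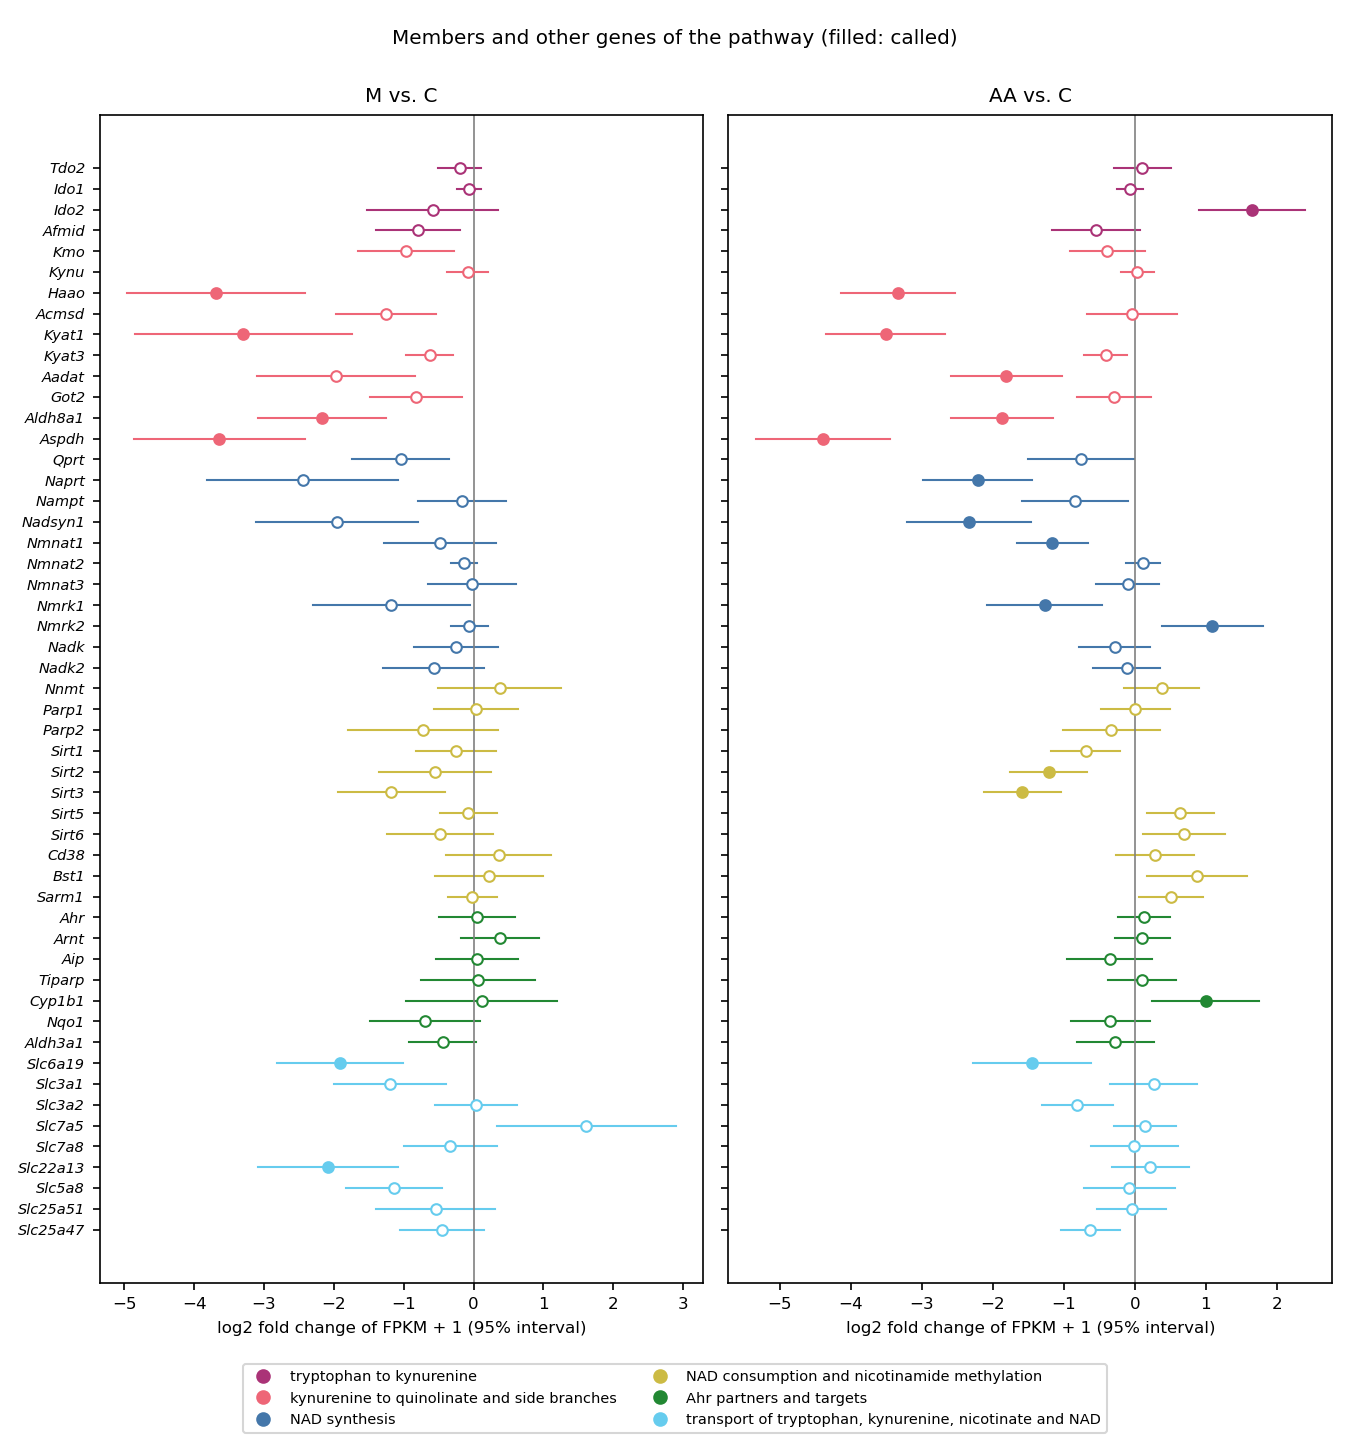
Log2 fold change of FPKM + 1 with its 95% interval for the 10 genes and the other genes of the pathway tested in AA vs. C, coloured by list and filled where called, in M vs. C (left) and AA vs. C (right). Aspdh, Kyat1 and Haao lie lowest in both panels, at -4.40, -3.51 and -3.34 for AA vs. C, and Ido2, Nmrk2 and Cyp1b1 are the 3 called higher in AA than in C.

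The summed levels of cell type markers differed between the groups too. The 10 markers of the proximal tubule, where Haao, Acmsd and the NAD synthesis genes are known to be used, summed to 404 to 2665 FPKM in C, 17.8 to 126 FPKM in M and 57.7 to 104 FPKM in AA, and all 10 were above 0 in each group. Slc34a1, Slc27a2 and Miox carried much of the C sum, at 312, 334 and 357 FPKM on average. From M to AA, Slc34a1 went from 6.06 to 3.59 FPKM on average and Hnf4a from 4.55 to 14.6 FPKM. Of these markers, 5 were called lower for M vs. C and 6 for AA vs. C. For AA vs. M, 1 was called higher and 0 lower, where 11.7% of all genes were called higher. The 5 markers of its last segment, S3, summed to a median of 55.2 FPKM in C, 11.6 FPKM in M and 31.7 FPKM in AA. The 7 markers of distal tubule and collecting duct summed to a median of 142, 17.8 and 23.6 FPKM in C, M and AA. Aqp2, at 20.6 to 437 FPKM in C, and Slc12a3 carried much of the C sum, while Calb1 averaged 7.69, 5.16 and 7.15 FPKM. Of the 7, 2 were called lower for M vs. C and 2 for AA vs. C. The 5 markers of injured tubule summed to a median of 5.15, 14.04 and 24.4 FPKM. From M to AA, Havcr1 went from 2.25 to 9.08 FPKM on average, Lcn2 from 4.52 to 4.49 FPKM and Vcam1 from 7.31 to 6.89 FPKM. The 10 macrophage markers, of cells that can hold Kynu, Kmo and Nampt, summed to a median of 30.0 FPKM in C, 358 FPKM in M and 150 FPKM in AA. The sums ranged from 162 to 472 FPKM in M and from 114 to 168 FPKM in AA. Lyz2 carried much of these sums, at 13.3, 194 and 86.9 FPKM on average, while Csf1r averaged 10.3, 4.93 and 3.01 FPKM. Lyz2 was at 241, 289 and 307 FPKM in M mice 1 to 3. In M mice 4 and 5 it was at 70.7 and 60.5 FPKM, within its AA range of 57.4 to 110 FPKM. Of the 10, 4 were called higher and 0 lower for M vs. C, and 5 higher and 1 lower for AA vs. C. For AA vs. M, 0 were called higher and 1 lower, where 11.7% and 1.07% of all genes were. The 9 lymphocyte markers summed to a median of 3.62, 5.31 and 15.5 FPKM. Cd3g carried much of the AA sum, at 1.21, 1.41 and 9.82 FPKM on average in C, M and AA. Other markers went down, with Cd79a at 1.88, 0.269 and 0.072 FPKM on average and Cd79b listed at 0 in all of AA. For AA vs. C, 2 of the 9 were called higher and 1 lower, against 10.2% and 9.61% of all genes. For AA vs. M, 2 of 7 tested were called higher and 0 lower, against 11.7% and 1.07%. The 7 hepatocyte markers, checked because liver holds most enzymes of the pathway, summed to at most 12.3 FPKM in any library, with Tat listed at 0 in all of M and AA. The part of these cell types in the differences of the 10 genes was not tested.

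Scale and base composition also moved with the groups. Mitochondrial genes held 53.0 to 62.5% of the reads in C, 64.0 to 86.8% in M and 69.2 to 87.2% in AA. Read as TPM, the median of all genes shifted from -0.12 to -0.58 for M vs. C, from 0.17 to 0.12 for AA vs. M and from 0.09 to -0.39 for AA vs. C. On that scale 7 of the 10 genes were called lower for M vs. C, where 7.46% of all genes were, and 7 for AA vs. C, where 27% were. Genes richer in G and C had lower fold changes: with the genes split into 5 equal bins by GC content, the median for AA vs. C was 0.27 in the bin of lowest GC and -0.28 in that of highest GC. Naprt, with 59.4% GC in its exons, was in that last bin. Haao at 51.1% and Nadsyn1 at 52.9% were in the bin before it, with a median of -0.02, and their own values of -3.34 and -2.34 lay far below it. Acmsd, at 43.7%, was in a bin with a median of 0.22 for AA vs. M. The part of GC content in these differences was not tested.

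The genes whose levels ran most like these across the 15 libraries were found by Pearson's r of log2(FPKM + 1) among 14287 genes, as a description of libraries that share groups, depth and base composition. For Haao they were Mcrip2 (r = 0.98), Aldh8a1 (0.97) and Hpn (0.97), and for Naprt they were Myo15b (0.98), Tle2 (0.98) and Kyat1 (0.98). Thus 2 genes of the tryptophan pathway, Aldh8a1 and Kyat1, stood among the 3 nearest to Haao and Naprt. For Nadsyn1 they were Sypl2, Grtp1 and Preb, at 0.98 each. For Acmsd they were Ddb2, Slc1a1 and Hook1, between 0.90 and 0.91, and for Kmo Dgat2, Gm44386 and Lrrc19, between 0.88 and 0.92. The values were lower for Qprt (Spink1, Morn2 and Bmp7, 0.88 each), Nampt (Esd, Stoml2 and Mrpl16, 0.86 to 0.89), Ahr (Jade1, Lxn and Sp140, 0.80 to 0.84) and Kynu (Ppil4, Ugt2b37 and Psmg2, 0.82 to 0.84). Among the 10 themselves, Haao, Naprt and Nadsyn1 ran together, with r of 0.91 for Haao and Naprt, 0.89 for Haao and Nadsyn1 and 0.90 for Naprt and Nadsyn1. Acmsd was nearest to Afmid, at 0.73, and Kmo, at 0.72, and had an r of -0.08 with Nampt.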

How the data were processed

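Kidney mRNA was sequenced as 150-base paired reads. Per the labels, the authors trimmed with fastp, aligned to mm10 with HISAT2 2.0.5 and counted with featureCounts 1.5.0-p3. They deposited FPKM values of 54532 genes in 15 libraries. The annotation release and strandedness are not given in the sources used here. Symbols, positions and exon lengths came from GENCODE M21 (GRCm38), in which 37 gene IDs had no match. Nnt matched 2 IDs and was left out.

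Each comparison (M vs. C, AA vs. M, AA vs. C) was fitted on its own 10 libraries with limma 3.58.1 in R 4.3.3, with an intensity trend, on log2(FPKM + 1), so that changes of low genes are understated. Genes above 0 in at least 5 of the 10 libraries were tested and p-values adjusted (Benjamini-Hochberg) over all of them. The fit was tested on simulated normal values with no zeros and no difference in depth or scale between libraries. It was therefore not tested for those features of these data. Low FPKM values were whole multiples of 1 counted read for 97.8 to 99.4% of low genes (within 0.05 of a whole read), which gave 13647000 to 28884400 reads per library; whether 1 step is a read or a pair was not settled, and counts were not tested.

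The 10 genes and all lists were chosen with earlier results of these data known. Named are the 10 genes, genes of the pathway lists called in any comparison, 8 fixed for their roles (Ido1, Tdo2, Nnmt, Cyp1a1, Cyp1b1, Tiparp, Ahrr and Nmnat1, of which Cyp1b1 and Nmnat1 were also called), and the 3 genes most correlated with each of the 10 that was above 0 in at least 12 libraries, which leaves out Afmid. Which pathway genes are given mouse by mouse was chosen after their values were seen. So were Nqo1, Lyz2, Csf1r, Slc34a1, Slc27a2, Miox, Hnf4a, Cd3g, Cd79a, Cd79b, Aqp2, Slc12a3, Calb1, Havcr1, Lcn2 and Vcam1. The promoter of 1 more gene is not reported here. The other alternatives were a pseudocount of 0.1, no filter, a mean FPKM of at least 1, TPM with and without mitochondrial genes, median centring, quantile normalization, 1 fit of all libraries, library weights, no trend, a replicate block and leaving out each mouse.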

Additional observations from a re-analysis of the deposited data

Results flagged for a closer look

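In 30 groups of 5 mice (10 genes, 3 groups), 2 held a mouse apart from the others by Dixon's criterion of 0.71, a number near what chance gives at 1 in 20 groups. Kmo in AA mouse 5 was 2.91 FPKM, above the next at 1.88 FPKM, and the gap took up 0.729 of the range of its group. Kynu in C mouse 2 was 0.538 FPKM, above the next at 0.184 FPKM, and the gap took up 0.724 of the range. Without C mouse 2, the log2 fold change of Kynu for M vs. C was 0.00.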

How the results depend on the processing

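How many of the 10 genes were called depended on the setting for M vs. C and AA vs. M and little for AA vs. C. For M vs. C the count was 1, and it was 0 with no filter on low values, 2 with a mean FPKM of at least 1, 7 as TPM, 0 as TPM without mitochondrial genes, 2 after median centring, 4 with all 15 libraries in 1 fit, 0 with M mice 4 and 5 alone, and between 0 (without C mouse 5 or M mouse 3) and 5 (without M mouse 5) when 1 mouse was left out. For AA vs. M the count was 1, and it was 0 as TPM, after centring and after quantile normalization, and 2, both lower, with M mice 4 and 5 alone. For AA vs. C the count was 3 in all settings but TPM, with 7, and without AA mouse 2, with 4. The cause was not tested.

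Of the single log2 fold changes, 9 alternatives lost a call and 22 gained one in the same direction. No log2 fold change that was called turned its direction in the settings tried. Of those not called, these did. For Ahr, M vs. C gave -0.10 with a pseudocount of 0.1, -0.37 as TPM, -0.078 as TPM without mitochondrial genes, -0.031 with library weights, and -0.14 to 0.19 without single mice. Ahr in AA vs. M gave -0.43 centred, -0.34 quantile normalized and -0.056 to 0.28 without single mice, and in AA vs. C -0.33 as TPM, -0.017 centred and -0.021 quantile normalized. Kynu in M vs. C gave 0.28 centred, 0.11 quantile normalized and -0.17 to 0.0013 without single mice. It gave -0.39 centred and -0.17 quantile normalized in AA vs. M, and -0.22 as TPM, -0.12 centred, -0.062 quantile normalized and -0.0084 to 0.12 without single mice in AA vs. C. Nampt in M vs. C gave 0.19 centred and 0.045 quantile normalized. In AA vs. M, Afmid gave -0.27 centred, and Haao gave -0.17 centred, -0.41 with library weights, -0.67 with M mice 4 and 5 alone and -0.17 to 0.65 without single mice. Qprt there gave -0.23 centred, -0.0030 quantile normalized and -0.0068 with M mice 4 and 5 alone, and Naprt gave -0.28 centred, -0.14 quantile normalized, -0.93 with library weights, -1.40 with M mice 4 and 5 alone and -0.040 to 0.68 without single mice. Acmsd in AA vs. C gave 0.027 with library weights and -0.17 to 0.20 without single mice.

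Mice with the same number did not clearly deviate together (r between -0.13 and 0.22 over 23493 genes). Of 5 pairs, 2, 0 and 1 were best with their own number. No pairing was therefore seen, but with 5 pairs of libraries of unequal depth it could be missed. A replicate block left the counts of the 10 genes at 1, 1 and 3, and moved those of all genes from 291 to 152 for M vs. C, from 2533 to 2217 for AA vs. M and from 4346 to 4345 for AA vs. C. Counts of all genes were 33 with no filter and 1609 as TPM for M vs. C. Depth limits the low genes in M and AA, where the median was 22 reads for Kynu, 26 for Qprt and 26 for Nadsyn1 in AA, and 0 for Afmid, 10 for Acmsd and 12 for Kynu in M.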
